A study of Mus musculus with 6 samples.

Results

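The extracellular matrix genes described here are the collagens, laminins and a small set of other matrix proteins, together with the integrin subunits through which cells hold on to them. The rule took protein-coding mouse genes whose symbol is Col followed by a digit, Lama, Lamb, Lamc, Itga or Itgb followed by a digit, and added Fn1, Nid1, Nid2, Sparc, Hspg2, Agrn and Vtn. It matched 86 of the 27179 identifiers in the count table. Members were then selected on measured values, as those with at least 60 raw counts summed over the 6 libraries, which left 53. Of the 33 that were left out, 5 had no count and 28 had between 1 and 59. The members divide into 36 ligands (9 laminin chains, 21 collagen chains and 6 other matrix proteins), 14 receptors (9 integrin alpha and 5 integrin beta subunits) and 3 genes that match by symbol alone and encode neither.

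The libraries hold poly(A) RNA of mouse embryonic stem cells on the ES-E14TG2a background, in which Trim71, a TRIM-NHL protein that binds RNA, carried a FLAG tag. The 3 R783H libraries came from cells whose tagged Trim71 has the amino-acid change R783H, and the 3 WT libraries from cells whose tagged Trim71 is wild type, so the tag was shared by both groups. All cells grew on gelatin, which is denatured collagen, in serum-containing medium with leukemia inhibitory factor and the inhibitors CHIR99021 and PD0325901. What the letters A, B and C mark (clones, cultures or library preparations) is not stated in the labels, so p-values measure the spread between these libraries, which may be technical.

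The matrix that lies under epithelia, the basement membrane, is built from laminin trimers of an alpha, a beta and a gamma chain and from a network of type IV collagen, linked by nidogens and by the proteoglycans perlecan (Hspg2) and agrin (Agrn). Fibronectin (Fn1) forms a separate fibrillar matrix. Integrins are heterodimers of an alpha and a beta subunit: Itgb1 pairs with Itga5 to bind fibronectin and with Itga3 or Itga6 to bind laminin. Early embryos and embryonic stem cells make laminin before they make most other matrix proteins, and laminin binding to Itgb1 dimers is part of how the epiblast becomes polarised.

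Total counts ran from 20894277 to 29079670 per library, with the R783H libraries all deeper than the WT libraries. Levels are given as CPM, read counts scaled to library size with TMM factors, with 3 counts, or 0.103 to 0.144 CPM, as the floor of detection; depth and these floors cover counting error only. Trim71 itself stood at 152, 129 and 150 CPM in R783H A, B and C and at 131, 131 and 159 CPM in WT A, B and C, with a log2 fold change of 0.03 (SE 0.08, adjusted p = 0.743, edgeR quasi-likelihood test). Gene counts cannot show a single-base change, so this does not check the labels. All 15 stem cell markers examined were counted well, and their summed level was 8727 to 8880 CPM in R783H and 8771 to 8874 CPM in WT. Within that sum 4 markers rose and 5 fell (60% called, beside 64.5% of all genes). Changes ran from -0.36 for Zfp42 to 0.31 for Fgf4 on the log2 scale, with falls of 0.23 for Nanog and 0.21 for Pou5f1. At full depth 33 members were called, beside 9152 of 14199 genes. Thinned to the smallest library, 32 members were called, beside 8884 of 13816 genes. Without R783H B, the library furthest from its group, 33 members were called, beside 9818 of 14169 genes.

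Ligand transcripts took a larger share of the R783H libraries. Summed over the 36 ligands, the level was 7054, 7049 and 7045 CPM in R783H A, B and C and 3713, 3815 and 3763 CPM in WT A, B and C. The 14 receptors together stood at 777, 777 and 781 CPM in R783H and at 650, 642 and 650 CPM in WT. Both sums separated the groups without overlap, and the ratio of the ligand sum to the receptor sum was 9.06 ± 0.0309 (SD, n = 3) in R783H and 5.81 ± 0.116 in WT. Fn1 alone made up much of this gap: without it the ratio was 5.61 ± 0.0347 in R783H and 4.48 ± 0.0729 in WT.

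Calls rest on edgeR's quasi-likelihood test with an adjusted p (Benjamini-Hochberg over 14199 genes) under 0.05, and fold changes are log2 of R783H over WT. All 53 members were tested, and 33 were called, which is 62.3% of them and close to the 64.5% called among all genes tested. The direction was less even than the number. Higher calls numbered 24 (45.3% of members, against 33.5% of all genes) and lower calls 9 (17%, against 30.9%). At least 2-fold higher were 4 members, Fn1, Col20a1, Col22a1 and Itga4, where 5.91% of all genes were called at that size, and 1 member, Itga9, was at least 2-fold lower, where the share of all genes was 3.17%. The groups' CPM did not overlap for 36 members (67.9%), against 68.1% of all genes. Among the 36 ligands 18 rose and 6 fell, with a median log2 fold change of 0.50. Among receptors 6 rose and 2 fell, with a median of 0.23, beside a median of 0.03 over all genes. The median ligand transcript was 6105 nt long. Of all genes with a known length of 5241 to 6792 nt, 50.04% rose and 16.83% fell, with a median of 0.19. The ligand split was close to that of genes of this length, while the ligand median was higher. Neither difference was tested.

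Low counts bear on that tally. For 6 members, Col20a1, Col22a1, Col9a3, Itga4, Itga2b and Itgb1bp2, 10 counts were reached in every library of R783H only, so the filter let them in through that group. Of the 4 members at least 2-fold higher, 3 are among these, and Fn1 alone had 10 counts in every library of both groups. With 10 counts required in all libraries, 47 members stayed and 30 were called, 21 of them higher and 9 lower. Under the same requirement 8713 of 13069 genes were called. At a mean of at least 50 counts over the 6 libraries, 14 of 22 ligands rose and 4 fell, and 5 of 9 receptors rose and 1 fell. The share of all genes called at that mean was not worked out, so these counts have no background beside them.

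**Figure D1:**
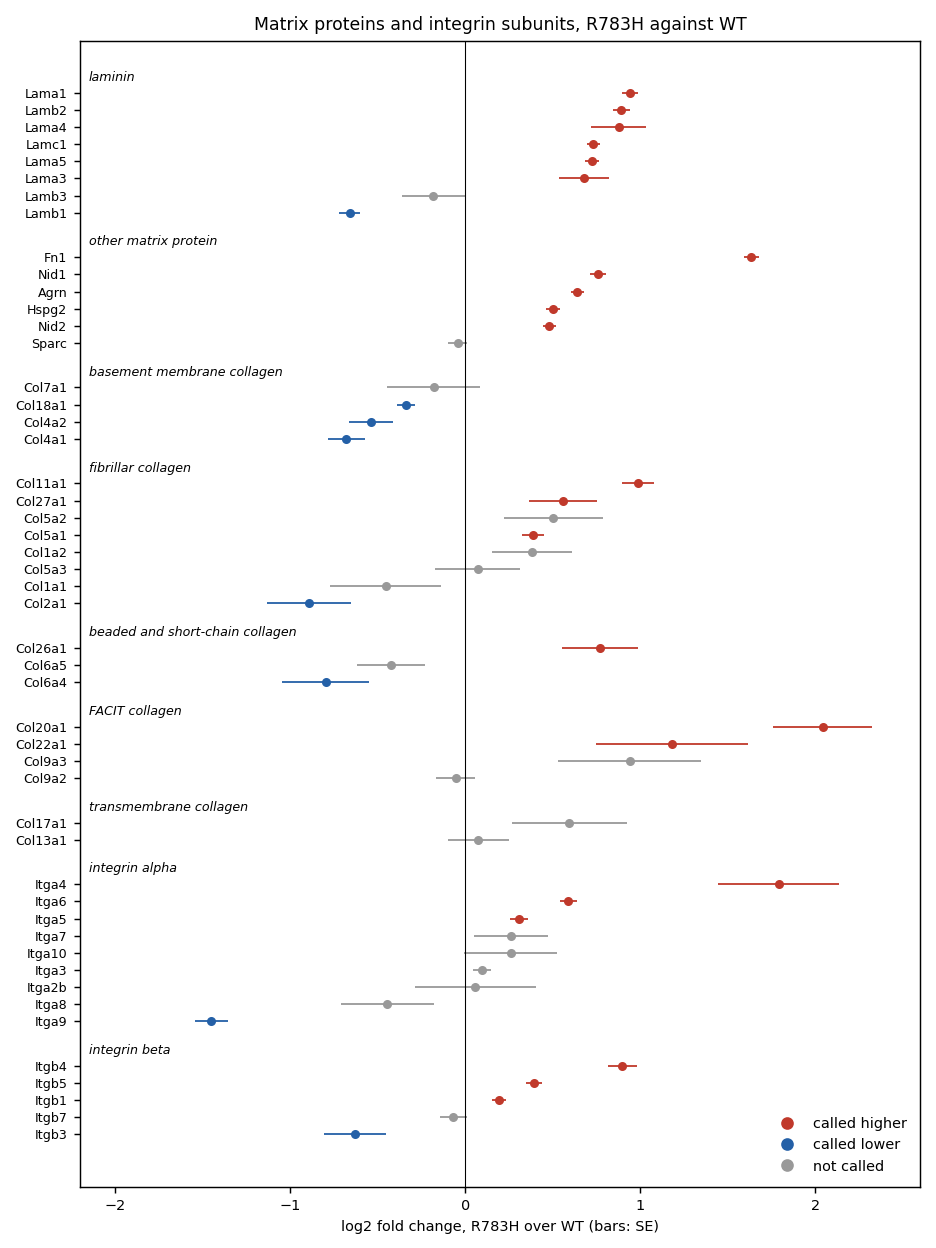
Log2 fold change of R783H over WT for 35 of the 36 ligands and for the 14 integrin subunits, grouped by class, with bars of 1 SE. Laminin chains and other matrix proteins lie mostly to the right of 0 with short bars, the called basement membrane collagens lie to the left, and the thinly counted collagens have long bars.

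Fibronectin moved furthest among the abundant members. Fn1 (Entrez Gene 14268, chr1:71585473-71653280 on GRCm38.p6) stood at 2723, 2661 and 2664 CPM in R783H A, B and C and at 829, 885 and 878 CPM in WT A, B and C. Every R783H library lay above every WT library by far more than the spread within either group. Fn1 rose by 1.63 on the log2 scale (SE 0.04, adjusted p = 2.53e-09), or 3.10-fold, and had the second-smallest p of all genes tested. In R783H it ranked 8 of all genes by CPM, against 101 in WT, and it took 0.272% to 0.281% of all counts, against 0.0801% to 0.0862%. An antisense gene, Apol7d, shares 2.50% of the annotated exon bases of Fn1, and the use of strand in counting is not given in the sources used here.

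Laminin chains rose together, with 1 exception among those that were called. Of 9 chains, 7 rose, 1 fell and 1 was not called (88.9% called, beside 64.5% of all genes). Lamc1, the gamma chain of most laminins, stood at 1095, 1119 and 1129 CPM in R783H and at 664, 682 and 665 CPM in WT. The groups were far apart, and Lamc1 rose by 0.73 (SE 0.04, adjusted p = 1.01e-07). Lama5, an alpha chain of widely expressed laminins, stood at 438, 429 and 444 CPM in R783H and at 265, 266 and 262 CPM in WT. Its rise of 0.72 (SE 0.04, adjusted p = 1.15e-07) was of the same size as that of Lamc1, again with no overlap. Lama1, the alpha chain of the first laminin of the embryo, stood at 267, 269 and 260 CPM in R783H and at 131, 142 and 142 CPM in WT. It rose by 0.94 (SE 0.05, adjusted p = 6.34e-08), the largest fold change among the laminins.

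The beta chains went opposite ways. Lamb2 (chr9:108479847-108490530) stood at 106, 113 and 107 CPM in R783H and at 58.9, 60.7 and 55.8 CPM in WT. Lamb1 (chr12:31265146-31329644) stood at 20.5, 20.8 and 22.5 CPM in R783H and at 33.6, 33.4 and 33.9 CPM in WT. Each gene separated the groups without overlap, with Lamb2 high and Lamb1 low in all 3 R783H libraries. Lamb2 rose by 0.89 (SE 0.05, adjusted p = 1.60e-07) and Lamb1 fell by 0.66 (SE 0.06, adjusted p = 3.10e-06). On a scale of CPM per kb of transcript, which allows levels of different genes to be compared, Lamb2 made up 84.0% ± 0.902 (SD, n = 3) of Lamb1 plus Lamb2 in R783H and 64.1% ± 1.17 in WT. Lamb1 is the beta chain usually paired with Lama1 in the embryo, and Lamb2 is better known from kidney, muscle and nerve.

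Set against each other per kb, the chains were not in equal supply. Lamc1 stood at 146 ± 2.34 CPM per kb in R783H and 88.0 ± 1.35 in WT, Lama1 plus Lama5 at 66.2 ± 0.291 and 37.8 ± 0.602, and Lamb1 plus Lamb2 at 23 ± 0.632 and 16.2 ± 0.391. The beta chains were thus the lowest of the 3 kinds in both groups. These sums and shares were chosen after the values were seen and are given without a test.

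**Figure D2:**
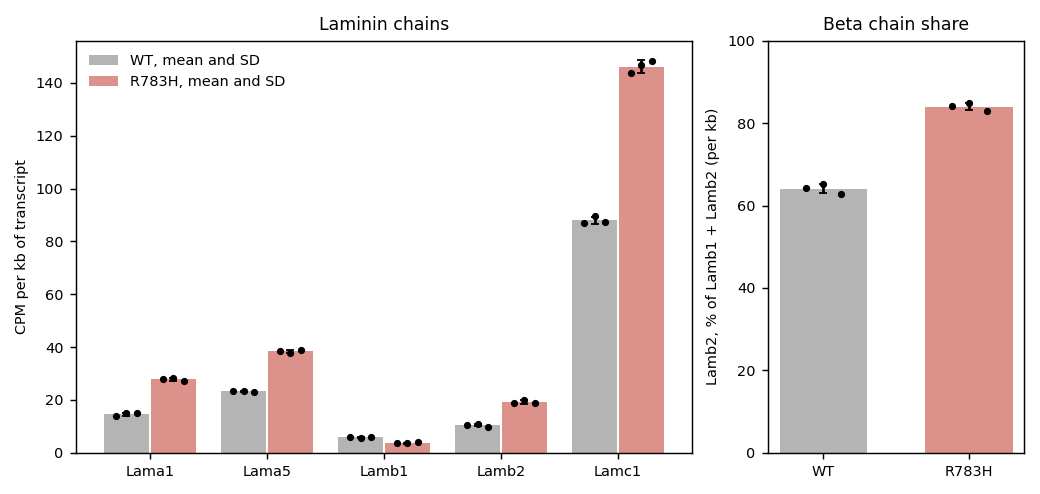
Left, CPM per kb of transcript for 5 laminin chains, with bars for the mean and SD of 3 libraries and a point for each library; right, Lamb2 as a percentage of Lamb1 plus Lamb2 on the same scale. Lamb1 is the single chain shown that is lower in R783H, and the Lamb2 share is 84.0% in R783H and 64.1% in WT.

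Other laminin chains were far scarcer. Lama3 and Lamb3, chains of skin laminins, averaged 3.6 and 1.98 CPM in R783H and 2.24 and 2.25 CPM in WT. Lama3 rose by 0.68 (adjusted p = 0.00163), whereas Lamb3 had a log2 fold change of -0.18 (adjusted p = 0.393). Lama4, an alpha chain of vessels and muscle, averaged 2.82 CPM in R783H and 1.54 CPM in WT and rose by 0.88 (adjusted p = 0.000548). Lama2 (46 counts over the 6 libraries) and Lamc3 (3 counts) stayed under the threshold for members.

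The linkers and proteoglycans of the basement membrane rose as well. Nid1 and Nid2 encode the nidogens, which bridge laminin to type IV collagen. Nid1 stood at 426, 400 and 429 CPM in R783H and at 239, 248 and 256 CPM in WT, and rose by 0.76 (SE 0.05, adjusted p = 2.17e-07). Nid2 stood at 690, 703 and 693 CPM in R783H and at 501, 504 and 490 CPM in WT, and rose by 0.48 (SE 0.04, adjusted p = 1.19e-06). Neither nidogen overlapped between the groups; Rtraf covers 8.45% of the exon bases of Nid2 on the opposite strand. Agrn, which anchors laminin and organises the nerve-muscle synapse, stood at 447, 444 and 439 CPM in R783H and at 286, 285 and 282 CPM in WT, and rose by 0.64 (SE 0.04, adjusted p = 1.96e-07). Hspg2, the heparan sulfate proteoglycan perlecan, stood at 419, 441 and 433 CPM in R783H and at 299, 305 and 310 CPM in WT, and rose by 0.50 (SE 0.04, adjusted p = 1.44e-06). All 3 R783H libraries lay above all WT libraries for both.

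Sparc did not share that pattern. It encodes a small collagen-binding protein of basement membranes, and it stood at 141, 159 and 142 CPM in R783H and at 153, 155 and 147 CPM in WT. R783H B was the highest of the 6 libraries and the other R783H libraries the lowest, so the groups overlapped. The log2 fold change was -0.04 (SE 0.05, adjusted p = 0.511). Without R783H B it was -0.12 (adjusted p = 0.00818), so that library decided the call. Vtn, the adhesion protein vitronectin, had 4 counts in all and was not a member.

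Of the 4 collagens of the basement membrane, 3 fell and 1 was not called (75% called, beside 64.5% of all genes). Col4a1 and Col4a2 encode the chains of the common type IV trimer and lie head to head on chromosome 8, with 22 exon bases shared on opposite strands. Col4a1 stood at 7.92, 10.5 and 9.96 CPM in R783H and at 15.9, 15.1 and 14.4 CPM in WT. Col4a2 stood at 3.09, 3.17 and 3.75 CPM in R783H and at 4.65, 5.14 and 4.73 CPM in WT. The R783H libraries were below the WT libraries throughout, and the falls were 0.68 (SE 0.10, adjusted p = 0.000167) for Col4a1 and 0.54 (SE 0.13, adjusted p = 0.00288) for Col4a2. Per kb, Col4a1 was 2.77 ± 0.399 times Col4a2 in R783H and 3.05 ± 0.243 times in WT, and these ratios overlapped. Both chains were scarce beside laminin: Col4a1 stood at 1.43 CPM per kb in R783H, against 146 for Lamc1.

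Col18a1 was the most abundant collagen. It encodes the basement membrane collagen that releases endostatin, and it stood at 79.8, 86.5 and 79.9 CPM in R783H and at 106, 105 and 99.7 CPM in WT. With no overlap, it fell by 0.34 (SE 0.05, adjusted p = 0.000142). Col7a1, which makes the anchoring fibrils of skin, averaged 1.20 CPM in R783H and 1.36 CPM in WT and was not called (log2 fold change -0.18, adjusted p = 0.571). So 3 of the 4 basement membrane collagens fell and none rose, and 12 of the 15 laminins and other matrix proteins rose and 1 fell. Of all genes 33.5% rose and 30.9% fell, and of those over 6792 nt 59.9% rose; the difference between the classes was not tested.

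**Figure D3:**
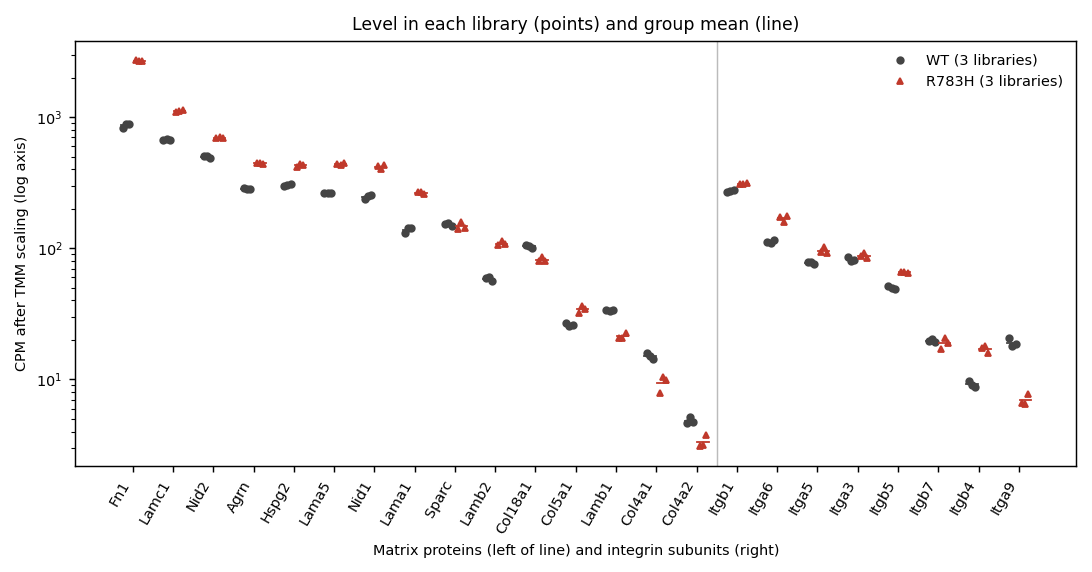
CPM after TMM scaling in each library (points, log axis) and group means (lines) for 15 ligands, left of the vertical line, and 8 integrin subunits, right of it. The Fn1 points span 2661 to 2723 in R783H and 829 to 885 in WT, while Lamb1, Col18a1, Col4a1, Col4a2 and Itga9 have their R783H points below their WT points.

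The other 17 collagen chains were nearly all thinly counted. Of the 8 fibrillar chains, 3 rose (37.5%) and 1 fell (12.5%), beside 33.5% and 30.9% of all genes. Col5a1, a chain of type V collagen that seeds fibrils, was the highest of these and stood at 32.0, 36.4 and 34.4 CPM in R783H and at 26.7, 25.6 and 26.2 CPM in WT, rising by 0.39 (SE 0.06, adjusted p = 0.000271). Col11a1, a type XI chain of cartilage that also copolymerises with type V, stood at 13.3, 12.7 and 13.8 CPM in R783H and at 6.14, 7.42 and 6.47 CPM in WT, rising by 0.99 (SE 0.09, adjusted p = 4.15e-06). Neither overlapped between the groups. Col27a1 also rose (0.56, adjusted p = 0.0266), but 6 of its alternative settings gave an adjusted p above 0.05. Col2a1, the main collagen of cartilage, averaged 0.603 CPM in R783H and 1.13 CPM in WT and fell by 0.89 (adjusted p = 0.0067). The type I chains, the bulk of bone and skin collagen, stood near 1 CPM and were not called: Col1a1 had a log2 fold change of -0.45 (adjusted p = 0.231) and Col1a2 of 0.38 (adjusted p = 0.162). The type V chains Col5a2 (0.50, adjusted p = 0.14) and Col5a3 (0.07, adjusted p = 0.814) were not called either. Col3a1, the usual companion of type I collagen in soft tissue, had 24 counts in all.

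A scarce collagen, Col20a1, had the largest fitted fold change, but it entered the test through R783H; among members with 10 counts in every library of both groups the largest rise was that of Fn1. Col20a1, a collagen of the kind that decorates fibrils (FACIT), stood at 2.50, 2.08 and 2.77 CPM in R783H, or 75, 59 and 82 counts. It stood at 0.941, 0.530 and 0.328 CPM in WT, or 19, 13 and 7 counts. It rose by 2.04 (SE 0.28, adjusted p = 7.36e-05), with every R783H library above every WT library. Col22a1, a FACIT collagen of tissue junctions, stood at 15, 19 and 15 counts in R783H and at 6, 2 and 8 in WT. Its rise of 1.18 (SE 0.43, adjusted p = 0.0323) was lost in 6 alternative settings. Just inside the threshold for members also lay Itga2b with 74 counts and Col9a3 with 82, and just outside it Lama2 with 46, Col14a1 with 38, Itga1 with 32 and Col16a1 with 30.

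Of the other collagens, Col26a1 rose and Col6a4 fell. Col26a1, a short-chain collagen, averaged 1.30 CPM in R783H and 0.762 CPM in WT and rose by 0.77 (adjusted p = 0.00893). Col6a4, a chain of the beaded-filament type VI family, averaged 0.556 CPM in R783H and 0.970 CPM in WT and fell by 0.80 (adjusted p = 0.0151). DESeq2 called neither, with adjusted p = 0.0896 for Col26a1 and 0.102 for Col6a4. The remaining chains of these classes, Col6a5, Col9a2, Col9a3, Col13a1 and Col17a1, were not called, with log2 fold changes from -0.42 to 0.94. Col17a1, a transmembrane collagen of hemidesmosomes, was called without R783H B (0.85, adjusted p = 0.00765). Col9a3, a cartilage FACIT collagen, was called in 4 alternative settings, without WT B (1.61, adjusted p = 0.0136) among them. Col6a5 was called in 2, without WT C (-0.54, adjusted p = 0.0464) and with a length and GC offset.

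Collagens and laminins are textbook targets of the miR-29 family of microRNAs, which bind messages through a shared seed, so the seed and its sites are shown. In the mature sequences from RefSeq, capitals mark the seed, bases 2 to 8 from the 5′ end. Members of the let-7 family, the best-known microRNAs of the Trim71 field, have another seed. No microRNA was measured in these libraries.
mmu-miR-29a-3p: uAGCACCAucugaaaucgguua
mmu-miR-29b-3p: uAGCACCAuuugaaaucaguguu
mmu-miR-29c-3p: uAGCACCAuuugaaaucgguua
mmu-let-7a-5p: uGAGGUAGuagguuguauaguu
In the longest annotated 3′UTR of each gene (GENCODE M21), the seed match of miR-29, TGGTGCT, was searched on the message strand. It occurred in 18 of the 53 members (34.0%) and in 16.8% of 12846 tested genes with a 3′UTR, although the median 3′UTR was shorter in members (1016 nt) than in all genes (1322 nt). Of these 18, 9 rose, 5 fell and 4 were not called. Of all members 45.3% rose and 17% fell, and of all genes 33.5% rose and 30.9% fell. Sites stood both in ligands that rose and in ligands that fell, as these windows of 30 bases show, with the seed match in capitals.
Lamc1, rose: tattatctgacacacTGGTGCTattaatta
Agrn, rose: tgcagagacaaaaagTGGTGCTgagggact
Col4a1, fell: gatgcacaccagcgcTGGTGCTgaaggttc
Col4a2, fell: gtgggaaggccacgtTGGTGCTtatccttc
The match to let-7, CTACCTC, was found in 9 members (17%) and in 12.1% of all genes. A match is a run of letters, and whether it is bound was not tested.

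Of Itgb1 and its partners Itga3, Itga5 and Itga6 at laminin and fibronectin, 3 rose and 1 was not called, where 33.5% of all genes rose. Itgb1, the beta subunit of most matrix-binding integrins, was the most abundant of them and stood at 309, 307 and 316 CPM in R783H and at 267, 272 and 276 CPM in WT. The groups did not overlap, and Itgb1 rose by 0.19 (SE 0.04, adjusted p = 0.00116), or 1.14-fold. Itga6, a laminin-binding alpha subunit, stood at 174, 160 and 175 CPM in R783H and at 112, 110 and 116 CPM in WT, and rose by 0.59 (SE 0.05, adjusted p = 1.88e-06). Itga5, the fibronectin-binding partner of Itgb1, stood at 93.1, 102 and 92.0 CPM in R783H and at 78.0, 78.5 and 75.3 CPM in WT, and rose by 0.31 (SE 0.05, adjusted p = 0.000332). Itga3, a second laminin-binding subunit, stood at 87.4, 91.5 and 84.5 CPM in R783H and at 85.4, 79.3 and 81.8 CPM in WT. Its groups overlapped and it was not called (0.10, SE 0.05, adjusted p = 0.115).

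Ligand and receptor levels can be set against each other per kb of transcript. On that scale, Fn1 stood at 14.9 ± 0.902 times Itga5 in R783H and at 5.94 ± 0.278 times in WT. Among the laminin receptors, Itga6 stood at 2.18 ± 0.190 times Itga3 in R783H and at 1.55 ± 0.0658 times in WT. Neither ratio overlapped between the groups, and both were picked after the values were seen. The promoters of Itga5 and Itgb1, which together form the main fibronectin receptor and rose together, are shown as the 250 bases before the RefSeq start on GRCm38.p6, 5′ to 3′ on the gene's strand. Capitals mark matches, on either strand, to the GC box GGGCGG, the CCAAT box CCAAT, the TATA box TATAAA, the CRE core TGACG and the TEAD motif GGAATG.
Itga5, chr15:103366792-103367041, minus strand: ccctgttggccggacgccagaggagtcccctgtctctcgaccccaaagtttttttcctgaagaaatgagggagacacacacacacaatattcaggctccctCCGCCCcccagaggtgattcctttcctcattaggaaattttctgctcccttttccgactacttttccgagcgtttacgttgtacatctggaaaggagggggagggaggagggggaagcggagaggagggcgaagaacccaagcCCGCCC
Itgb1, chr8:128685404-128685653, plus strand: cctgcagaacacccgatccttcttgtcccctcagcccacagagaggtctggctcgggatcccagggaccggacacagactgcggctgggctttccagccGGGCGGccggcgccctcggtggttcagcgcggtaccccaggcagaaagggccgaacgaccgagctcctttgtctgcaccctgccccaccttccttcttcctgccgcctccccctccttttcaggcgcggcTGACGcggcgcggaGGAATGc
The Itga5 window held 2 GC boxes and the Itgb1 window 1 GC box, 1 CRE core and 1 TEAD motif, while neither held the letters of the CCAAT or TATA box. Over 32851 promoter windows of the same length, 32.7% held a GC box, 33.8% a CCAAT box, 12.4% a TATA box, 17.8% a CRE core and 12.6% a TEAD motif. RefSeq entries matched 35 of the 53 members, and no data of this series bear on what binds there.

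Of the other beta subunits, 2 rose and 1 fell, where 33.5% of all genes rose and 30.9% fell. Itgb5, a partner of Itgav in binding vitronectin, stood at 65.9, 65.9 and 65.0 CPM in R783H and at 51.5, 49.6 and 48.8 CPM in WT, and rose by 0.39 (SE 0.05, adjusted p = 2.59e-05). Itgb4, the partner of Itga6 in hemidesmosomes, stood at 17.5, 18 and 15.9 CPM in R783H and at 9.75, 9.13 and 8.72 CPM in WT, and rose by 0.90 (SE 0.08, adjusted p = 3.61e-06). Both separated the groups, and a noncoding RNA covers 7.66% of the exon bases of Itgb4 on the opposite strand. Itgb7, known from lymphocytes, stood at 17.1, 20.5 and 18.9 CPM in R783H and at 19.6, 20.4 and 19.3 CPM in WT, with overlap and no call (-0.07, adjusted p = 0.46). Itgb3, the beta subunit of the platelet integrin, stood at 1.20, 1.06 and 1.32 CPM in R783H and at 1.93, 1.83 and 1.78 CPM in WT, and fell by 0.63 (SE 0.18, adjusted p = 0.00911). DESeq2 gave Itgb3 an adjusted p of 0.0623.

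Itga9 and Itga4 had the largest fitted changes among receptors, in opposite directions, but Itga4 entered the test through R783H. Among receptors with 10 counts in every library of both groups, the largest rise was that of Itgb4 (0.90). The products of Itga9 and Itga4 are related alpha subunits that bind fibronectin splice forms and other ligands. Itga9 (chr9:118606709-118901003) stood at 6.59, 6.48 and 7.80 CPM in R783H and at 20.5, 17.9 and 18.7 CPM in WT. The R783H libraries all lay well below the WT libraries, and Itga9 fell by 1.45 (SE 0.09, adjusted p = 3.34e-07), a level 2.73-fold lower. Itga4 (chr2:79255426-79333114) had 29, 32 and 23 counts in R783H and 6, 9 and 3 counts in WT, or 0.965, 1.13 and 0.776 CPM against 0.297, 0.367 and 0.141 CPM. It rose by 1.79 (SE 0.35, adjusted p = 0.000846) from a level near the floor, and 8.04% of its exon bases are shared with Cerkl on the opposite strand. Itga7, Itga8, Itga10 and Itga2b, subunits of muscle, kidney, cartilage and platelets, averaged under 3 CPM and were not called, with log2 fold changes from -0.44 to 0.26; another gene on the same strand covers 33.5% of the exon bases of Itga10.

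Of the 3 genes that match by symbol alone, 1 fell, where 30.9% of all genes fell. Itgb1bp1, a cytosolic protein that binds the tail of Itgb1, stood at 17.8, 19.8 and 15.6 CPM in R783H and at 24.9, 24.4 and 22.5 CPM in WT, and fell by 0.43 (SE 0.09, adjusted p = 0.00122), with 11.4% of its exon bases shared with Asap2 on the opposite strand. Itgb3bp, a centromere protein, had a log2 fold change of -0.05 (adjusted p = 0.761) and Itgb1bp2, a chaperone of striated muscle, of 0.32 (adjusted p = 0.441).

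Transcript length moved with the fold change across the whole table. In the longest 10% of genes with a known length, those over 6792 nt, 59.9% rose, 13.2% fell and the median log2 fold change was 0.31. Matrix genes are long: the median transcript was 6105 nt for ligands, 4638 nt for receptors and 3364 nt for all genes, and 14 ligands and 2 receptors fell in that longest group. With a smooth offset for length and GC content in each library, 31 members were called, 21 higher (39.6%) and 10 lower (18.9%). Under that offset 68.6% of all genes were called, 31.5% higher and 37% lower. The medians were then 0.28 for ligands and 0.13 for receptors, beside -0.03 over all genes. With it Fn1 was at 1.33, Lamc1 at 0.45, Lama5 at 0.39, Lama1 at 0.59, Lamb2 at 0.75, Nid1 at 0.54, Agrn at 0.33 and Hspg2 at 0.14, all still called higher. Lamb1 was at -0.85, Col4a1 at -0.90 and Itga9 at -1.71, all still called lower. Higher calls were lost for Col5a1 (0.10, adjusted p = 0.151), Lama3 (0.30, adjusted p = 0.089), Col22a1 (0.86, adjusted p = 0.0922) and Col27a1 (0.32, adjusted p = 0.173). Calls were gained for Col6a5, lower (-0.78, adjusted p = 0.00343), and Col9a3, higher (0.98, adjusted p = 0.0398).

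**Figure D4:**
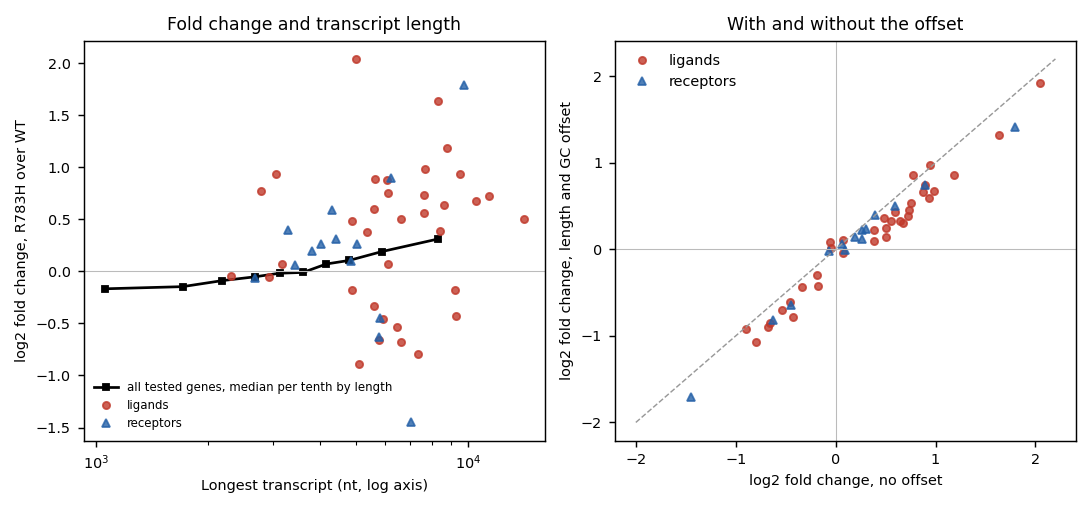
Left, log2 fold change of 35 of the 36 ligands and of each receptor against the length of the longest transcript (log axis), with black squares for the median of all tested genes in each of 10 bins by length. Right, fold changes with the length and GC offset against those without it, with the line of equality dashed; most members lie below that line and Fn1 moves from 1.63 to 1.33.

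Companion genes are read against the 33.5% of all genes that rose and the 30.9% that fell. The share called was 68.2% for collagen processing, 71.4% for other receptors, 72.4% for cytosolic adhesion proteins, 42.9% for other matrix proteins and 60% for proteases and inhibitors, beside 64.5% of all genes. Among enzymes and chaperones that process collagen, 10 of 22 tested rose and 5 fell, with a median of 0.11. Tll1 (1.76), a protease that trims procollagen, and Loxl2 (1.65), which cross-links collagen, rose, while Bmp1 (-1.03), the main procollagen protease and a relative of Tll1, fell. All of these were scarce. Tll1 averaged 2.06 CPM in R783H and 0.595 CPM in WT, Loxl2 5.89 and 1.87 CPM, and Bmp1 1.11 and 2.27 CPM. Among matrix receptors outside the rule, 10 of 21 rose and 5 fell, with a median of -0.03. Itgav, the alpha subunit of vitronectin and fibronectin receptors, stood at 79.9, 72.0 and 81.7 CPM in R783H and at 34.8, 36.8 and 39.4 CPM in WT and rose by 1.07 (SE 0.07, adjusted p = 2.26e-07). Cd47, a thrombospondin receptor, rose by 1.30, and Sdc1, a cell-surface heparan sulfate proteoglycan, fell by 1.16.

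Inside the cell, 12 of 29 proteins that couple integrins to actin rose and 9 fell, with a median of 0.09. Fermt3, a kindlin that activates integrins, rose by 0.88, while Tns2, a tensin, fell by 1.66. Among other matrix glycoproteins and proteoglycans, 7 of 35 rose and 8 fell, with a median of -0.11. Egfl6 (1.02), Vcan (0.82), a hyaluronan-binding proteoglycan, and Tgfbi (0.76), an adhesion protein, had the largest called changes that met the count minimum of the naming rule. Among matrix proteases and their inhibitors, 9 of 25 rose and 6 fell, with a median of 0.09. Adamts9, a protease that cuts versican, rose by 1.45 and Reck, a membrane-bound protease inhibitor, by 1.23, while Timp2, a metalloprotease inhibitor, fell by 1.49.

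Basement membrane genes are also hallmarks of extraembryonic endoderm, a cell type that embryonic stem cells can give rise to. Of 18 markers of that type, 9 could be tested, and 4 rose (Gata4, Sox17, Hnf4a and Lrp2) and 2 fell (Amn and Rhox5). The share called was 66.7%, beside 64.5% of all genes. The summed level of the markers was 48.5 to 49.0 CPM in R783H and 48.6 to 51.3 CPM in WT, so it overlapped. That overlap rests on Rhox5, the most abundant of them in WT: without it, a choice made after the values were seen, the sum was 34.9 to 35.5 CPM in R783H and 21.4 to 23.3 CPM in WT. The median log2 fold change of the 9 was 0.67. At least 2-fold changes were called for 2 of the 4 that rose and 1 of the 2 that fell. Other markers on the list were scarce: Afp had 0 counts, Ttr 2, Foxa2 14, Sox7 52 and Gata6 59 over the 6 libraries. Gata4 averaged 6.68 CPM in R783H and 3.19 CPM in WT, and the part of such cells in the ligand levels was not tested. In bulk RNA, a change in the number of cells of a type and a change in RNA per cell cannot be told apart.

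Markers of other cell types moved in both directions. Of 15 fibroblast markers 7 were tested, and 2 rose and 3 fell (71.4% called, beside 64.5% of all genes). The summed level of the 15 was 18.3 to 22.6 CPM in R783H and 19.7 to 20.7 CPM in WT. Twist1 rose by 1.02 to 5.48 CPM and Thy1 fell by 2.74 to 0.194 CPM, while Twist2 had 0 counts, Postn 1, and Lum and Dcn 13 each. Of 12 trophectoderm markers 7 were tested, and 2 rose and 3 fell (71.4% called, beside 64.5% of all genes). Of the 2 that rose, 1 did so at least 2-fold, and the largest log2 fold change of the 7 was 1.10. The summed level of the 12 was 86.8 to 95.5 CPM in R783H and 120 to 121 CPM in WT. Eomes averaged 32.9 CPM in R783H and 46.3 CPM in WT and fell by 0.49, Tfap2c averaged 10.1 and 23.8 CPM and fell by 1.24, and Cdx2 averaged 1.86 and 6.04 CPM and fell by 1.70. Krt8 averaged 36.7 and 37.0 CPM and was not called, while Tpbpa had 0 counts, Elf5 3 and Gcm1 14. That sum was lower in R783H without overlap, and its part in the results above was not tested.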

How the data were processed

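Per the submitters' processing notes, reads were handled with CASAVA 1.4, HISAT2 and SAMtools on the build mm10. The authors deposited 1 table of raw read counts per Entrez gene and library, without normalization; the counting tool, annotation and strand use are not given in the sources used here. Titles gave group and letter. A RefSeq gene table (GRCm38.p6) named 25275 of 27179 identifiers; lengths are of the longest GENCODE M21 transcript.

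edgeR 4.0.16 (R 4.3.3) was fitted over all genes passing filterByExpr (minimum count 10, minimum total 15; 14199 genes) with TMM scaling and group as the single term, and tested by quasi-likelihood with Benjamini-Hochberg adjustment. SE is the log2 fold change divided by the square root of F. The script was tested on simulated data. DESeq2 1.42.0, limma 3.58.1, other scalings and filters, thinning, a length and GC offset, a replicate block and leaving out each library were alternatives.

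Members and lists were chosen with earlier results of these data known. Named with full values were members changed at least 2-fold, the 3 highest per kb of each role, and the laminin, type IV collagen, integrin and matrix genes set out above; companion lists gave their 3 largest called changes with a mean of at least 50 counts in the higher group. The values of 1 member and 1 companion gene are not reported here, although both enter the counts and sums. Of the members, 19 share exon bases with another gene and 14 share a stretch of at least 98% identity over at least 100 nt (BLAST 2.17.0), so their counts are uncertain to that extent.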

Additional observations from a re-analysis of the deposited data

How the results depend on the processing

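Over 16 alternatives, the count of members called ran from 25 (with at least 300 counts required of a member) to 35 (library total alone), beside 33, and stayed within 1.5 times of it. The count of 25 comes from a smaller set of 33 members, of which 75.8% were called, beside 62.3% of all 53. Calls among all genes moved as well, from 8094 of 14199 (without WT B) to 9818 of 14169 (without R783H B), beside 9152 of 14199. With library totals alone 9276 of 14199 genes were called. The ligand and receptor medians, 0.50 and 0.23, were 0.58 and 0.31 with library totals alone, under which the median of all genes moved from 0.03 to 0.11. With the length and GC offset they were 0.28 and 0.13, and their difference was 0.14 in place of 0.28, since that alternative removes the trend with length and GC content by construction. Leaving out 1 library at a time gave ligand medians from 0.46 (without R783H B) to 0.57 (without WT B), receptor medians from 0.15 (without R783H B) to 0.26, and differences from 0.29 to 0.36 (without R783H A). The replicate block gave 33 called members, 24 higher and 9 lower, and changed no call. Deviations of same-lettered libraries correlated at -0.07, 0.0068 and 0.09 for A, B and C. With 3 libraries per group, these values cannot settle whether the letters pair the libraries.

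Signs turned only in members that were not called. Col9a2 was at 0.027 with library totals, 0.082 with the offset and from -0.14 to 0.00065 leaving out 1 library. Col5a3 was at -0.042 with the offset and from -0.11 to 0.27 leaving out 1 library. With library totals, Sparc was at 0.038, Itgb7 at 0.013 and Itgb3bp at 0.033. Sparc was at 0.016 and Itga3 at -0.0031 with the offset, and Itgb1bp2 at -0.080 after thinning. Leaving out 1 library gave -0.11 to 0.031 for Itgb3bp, -0.19 to 0.33 for Itga2b and -0.045 to 0.16 for Col13a1. The causes were not tested. DESeq2 lost 5 calls (Col6a4, Col22a1, Col26a1, Col27a1 and Itgb3), all of members averaging under 3 CPM. It also called fewer of the 14199 genes, 8105 against 9152. Depth limits what can be said of the 20 members with a mean under 50 counts.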
